A study of Mus musculus with 47 samples.

Results

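The lysyl oxidase family of the mouse, *Lox*, *Loxl1*, *Loxl2*, *Loxl3* and *Loxl4*, was followed through cultured B78-D14 melanoma cells and the tumors grown from them. The members were taken by gene symbol from a table of RNA-seq read counts, and all 5 were found among its 56748 genes. The family was chosen by the tumor levels of *Loxl2*, which were already known to differ between m.12,436 60% tumors and the rest. Its values in the comparisons below are therefore given as a description, and each adjusted p shows where a gene stood among all genes tested, not independent evidence for the choice.

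B78-D14 is an amelanotic mouse melanoma line derived from B16 that lacks *Cdkn2a*. Its mitochondrial DNA was changed with base editors at m.12,436 or m.11,944, each of which places a premature stop in *Mt-Nd5*, a subunit gene of respiratory complex I. Heteroplasmy is the percentage of mtDNA copies that carry the change. The groups used were m.11,944 60% cells and control cells (labelled wild type), with 4 cultures each, and subcutaneous tumors, of which 7 came from m.12,436 60%, 7 from m.12,436 40% and 4 from control cells. No sample had received a treatment. All groups share the parental line and its *Cdkn2a* loss, and the edited lines are transfected populations of that line. The study describes B78 allografts of these lines in immunocompetent C57BL/6 mice. The mice were male and, by the methods, about 8 weeks of age, while the study's reporting form gives an older range. The labels of the samples do not name the host. Each tumor sample was a fragment that holds host cells beside melanoma cells, so that fewer cells of a type and less RNA per cell cannot be told apart.

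Lysyl oxidases are copper-dependent enzymes that convert lysines of collagen and elastin to reactive aldehydes, from which the covalent cross-links of the extracellular matrix form. All are secreted. *Lox* and *Loxl1* are made as proenzymes that are cleaved outside the cell, and *Loxl2*, *Loxl3* and *Loxl4* share a region of scavenger receptor cysteine-rich domains in its place. In tumors they are known from fibroblasts as well as cancer cells, and Loxl2 acts on collagen IV of basement membranes.

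In GRCm39, the genome build of the counting, *Loxl2* lies on the + strand of chromosome 14 from 69846209 to 69933283 and *Loxl3* on the + strand of chromosome 6 from 83011152 to 83029543. *Loxl4* lies on the − strand of chromosome 19 from 42580711 to 42601252, *Loxl1* on the − strand of chromosome 9 from 58195014 to 58220495 and *Lox* on the − strand of chromosome 18 from 52649136 to 52663110. The longest identical stretch between transcripts of any pair of members was 32 bases, between *Lox* and *Loxl1*, and it was 28 bases between *Loxl2* and any other member.

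Between 16475735 and 36173502 reads per library were counted on genes. Levels are given as CPM, counts scaled to library size over all 26 libraries with TMM normalization, and as CPM per kilobase of exon where genes are compared with each other. The labels were checked against cell type markers. Of 7 pigment cell markers, 6 were under 1 CPM in both groups of cells, with *Tyr* at 0 counts in each, and *Mitf* was the exception. The cultures had almost no leukocyte or macrophage RNA: the 5 leukocyte markers summed to between 0.766 and 1.44 CPM, against 425 to 943 CPM in the tumors.

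*Lox* and *Loxl1* were nearly absent from the cultured cells and present in every tumor. *Lox*, the founding member, had 0 counts in the 4 control cultures and 1 count in the 4 m.11,944 60% cultures. In control tumors 1 to 4 it was at 15.7, 16.1, 39.7 and 18.1 CPM. Against a floor of 3 counts over the 4 control cultures, it was at least 770-fold higher in control tumors. *Loxl1*, an elastin cross-linking member, had 2 to 11 counts per control culture and 4 to 13 per m.11,944 60% culture, too few to be tested between the cells. It was at 28.1, 27.0, 47.1 and 11.3 CPM in control tumors 1 to 4, so that every tumor lay far above every culture.

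The other members were expressed by the cultured cells. *Loxl2* rose from 10.1 ± 3.46 CPM in control cells to 64.6 ± 13.1 CPM in control tumors (SD, n = 4 each), by 2.72 on the log2 scale (standard error, SE, 0.25; adjusted p = 2.14e-05, edgeR's quasi-likelihood test). *Loxl3* rose by 1.33 (SE 0.11, adjusted p = 1.21e-05), from 34.8 ± 4.24 to 85.7 ± 1.27 CPM. *Loxl4* was the only member that was lower in tumors, at 28.9 ± 3.76 against 37.7 ± 5.40 CPM, with overlapping groups. Its log2 fold change was −0.35 (SE 0.15, adjusted p = 0.0673), and the call was lost in 9 of 15 alternative analyses, with adjusted p up to 0.225. In this comparison 65.2% of the 15047 genes tested passed, 35.3% as higher and 29.9% as lower in tumors. The 4 members that passed as higher and the 1 as lower are to be read against these shares. Growth as a tumor and the presence of host cells go together in this comparison. Their parts in the differences of all 5 members cannot be told apart.

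**Figure D1:**
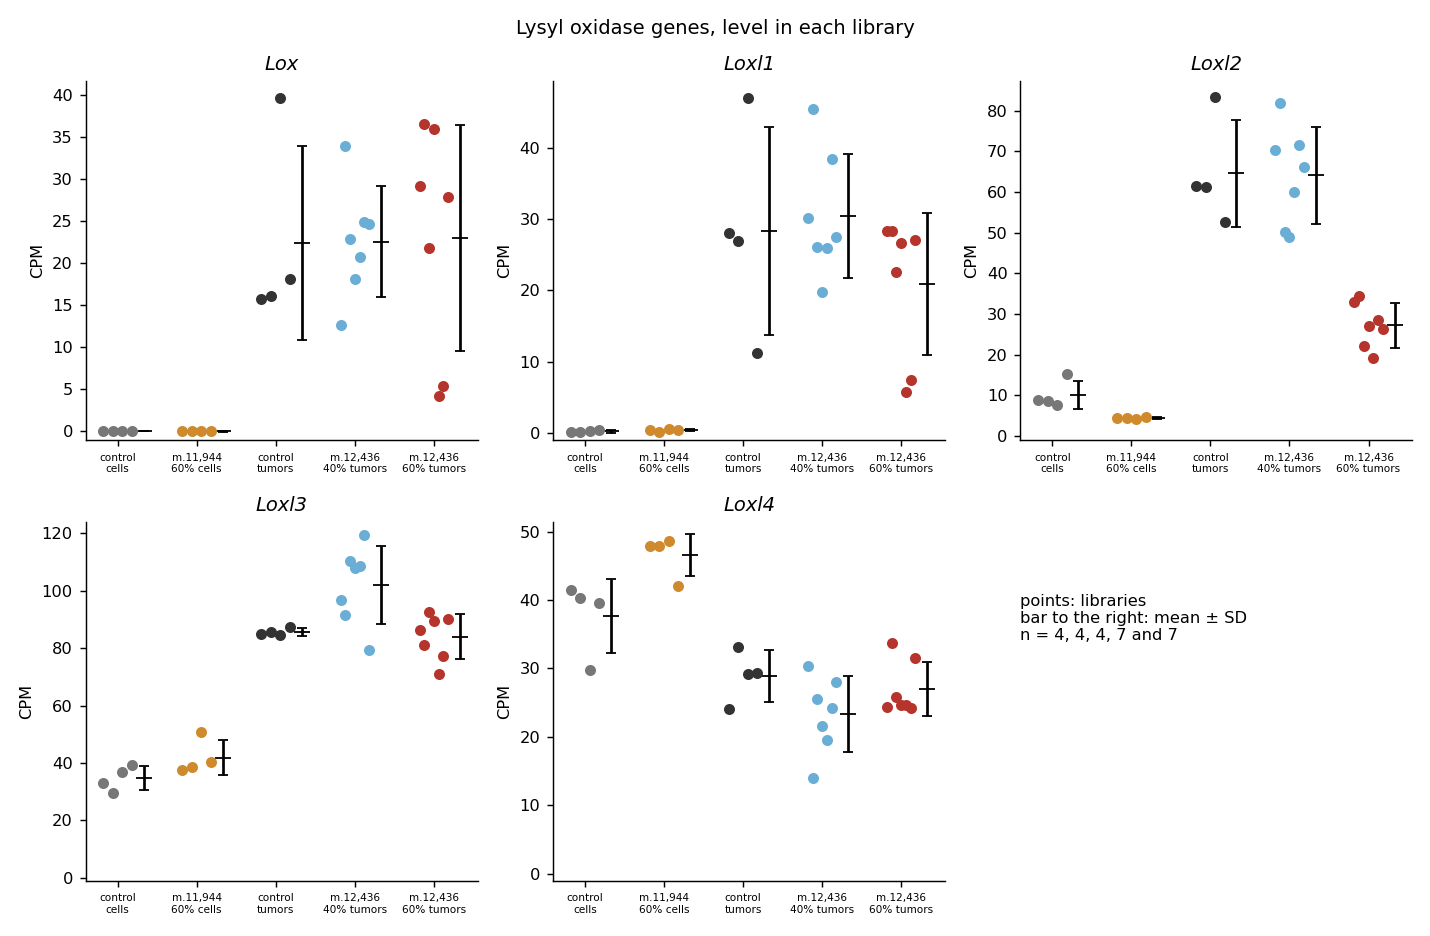
Level of each lysyl oxidase gene in CPM (vertical axes, each from its own scale) in the 26 libraries; points are libraries and the bar beside them is the mean ± SD. *Lox* and *Loxl1* lie at or near 0 in the 8 cultures, and the 7 m.12,436 60% tumors lie between 19.1 and 34.4 CPM for *Loxl2*, below all 11 other tumors.

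Between the tumor groups, *Loxl2* passed the test in m.12,436 60% tumors against both other groups, and *Loxl3* passed against m.12,436 40% tumors. *Loxl2* was at 61.3, 61.2, 83.3 and 52.6 CPM in control tumors 1 to 4. In m.12,436 40% tumors it ranged from 48.8 to 81.8 CPM with a median of 66.1, and in m.12,436 60% tumors from 19.1 to 34.4 CPM with a median of 27.0. The highest m.12,436 60% tumor was thus below the lowest tumor of either other group, while control and m.12,436 40% tumors overlapped.

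Against control tumors, *Loxl2* was 2.38-fold lower in m.12,436 60% tumors, a log2 fold change of −1.25 (SE 0.16, 95% interval −1.59 to −0.91, adjusted p = 0.00134). It had the 5th smallest p of 16213 genes, and 2.31% of these genes passed the threshold of an adjusted p under 0.1, 1.34% as lower. Against m.12,436 40% tumors, it was 2.36-fold lower, with a log2 fold change of −1.24 (SE 0.14, 95% interval −1.54 to −0.94, adjusted p = 0.000845). There it had the smallest p of all genes, and 1.81% of genes passed, 0.993% as lower. The groups did not overlap, being lower in m.12,436 60% tumors, for 2.78% of genes against control tumors and 0.321% against m.12,436 40% tumors. These comparisons share the m.12,436 60% tumors, so their values for *Loxl2* are not independent of each other.

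Between m.12,436 40% and control tumors, *Loxl2* averaged 64.1 ± 11.97 CPM (SD, n = 7) and 64.6 ± 13.1 CPM (SD, n = 4). The difference was −0.01 on the log2 scale (SE 0.17, adjusted p = 0.998), and its 95% interval ran from −0.36 to 0.34, so that a difference as large as that of the m.12,436 60% tumors lay outside it. No gene passed the threshold in this comparison by edgeR's test, 0% of those tested, and 825 genes, 5.09%, had an unadjusted p under 0.05.

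*Loxl3*, a member needed for development of the palate and spine, was by mean the most abundant member per kilobase in every group. In cells its range overlapped that of *Loxl4*, and in control culture 2 it was lower, at 6.349 against 6.725 CPM per kb. Control tumors 1 to 4 lay close together at 85.0, 85.8, 84.5 and 87.4 CPM. The m.12,436 40% tumors ranged from 79.2 to 120 CPM with a median of 108, and the m.12,436 60% tumors from 71.1 to 92.7 CPM with a median of 86.3. *Loxl3* was lower in m.12,436 60% than in m.12,436 40% tumors by a log2 fold change of −0.28 (SE 0.08, adjusted p = 0.0892), with overlapping groups. This call was close to the threshold and was lost in 15 of 23 alternative analyses, with adjusted p up to 0.212. Its log2 fold changes against control tumors were −0.03 (SE 0.09, adjusted p = 0.91) for m.12,436 60% and 0.26 (SE 0.09, adjusted p = 0.924) for m.12,436 40%.

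*Lox* did not pass in any comparison between tumors. It ranged from 12.6 to 33.9 CPM with a median of 22.9 in m.12,436 40% tumors, and from 4.16 to 36.6 CPM with a median of 27.8 in m.12,436 60% tumors. Among the latter, tumors 5 and 6 were at 4.16 and 5.45 CPM and the other 5 at 21.8 CPM or more. Its log2 fold change was 0.03 against control tumors, with a wide 95% interval of −0.99 to 1.05 (adjusted p = 0.984), and limma-voom gave −0.24.

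*Loxl1* showed the same low tumors. It ranged from 19.8 to 45.5 CPM with a median of 27.5 in m.12,436 40% tumors and from 5.78 to 28.4 CPM with a median of 26.7 in m.12,436 60% tumors, of which tumors 5 and 6 were at 5.78 and 7.49 CPM. In m.12,436 60% tumors its log2 fold change was −0.45 against control tumors (95% interval −1.32 to 0.42, adjusted p = 0.621; −0.07 without control tumor 3 and −0.70 without control tumor 4) and −0.55 against m.12,436 40% tumors (95% interval −1.31 to 0.20, adjusted p = 0.516). With these intervals, neither no difference nor one as large as that of *Loxl2* lay outside.

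*Loxl4*, which shares the scavenger receptor domains of *Loxl2* and *Loxl3*, was at 24.0, 33.2, 29.1 and 29.3 CPM in control tumors 1 to 4. It ranged from 14.0 to 30.4 CPM with a median of 24.3 in m.12,436 40% tumors and from 24.3 to 33.7 CPM with a median of 24.7 in m.12,436 60% tumors. All 3 groups overlapped. Its log2 fold change in m.12,436 60% tumors was −0.10 (95% interval −0.43 to 0.23, adjusted p = 0.792) against control tumors and 0.21 (95% interval −0.08 to 0.49, adjusted p = 0.519) against m.12,436 40% tumors. These intervals leave out a fall of the size measured for *Loxl2*.

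The columns of the cultures were matched to their groups by indirect name evidence, and the values of cells rest on that match. In cultured cells, *Loxl2* was at 8.85, 8.53, 7.65 and 15.2 CPM in control cultures 1 to 4 and at 4.30, 4.30, 4.16 and 4.65 CPM in m.11,944 60% cultures 1 to 4. Every m.11,944 60% culture was below every control culture, as was so for 2.26% of the 12930 genes tested. This was a log2 fold change of −1.18 (SE 0.24, 95% interval −1.73 to −0.64). It did not pass, with an unadjusted p of 0.00097 and an adjusted p = 0.414 by edgeR's test, where only 5 genes, 0.0387%, passed.

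Same-numbered cultures of both groups deviated together, and with the replicate number as a block *Loxl2* passed the threshold, at −1.15 (SE 0.16, adjusted p = 0.00872), as did 919 genes in all, 7.11% of those tested. The log2 ratio of same-numbered cultures was −1.04, −0.99, −0.88 and −1.71 for numbers 1 to 4. Without control culture 4, the highest, the log2 fold change was −0.90 (adjusted p = 0.228). The cultures carry a different mutation from the tumors analysed, and the difference of *Loxl2* between cells was not tested against that between tumors.

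*Loxl4* was higher in each m.11,944 60% culture, at 47.9, 47.9, 48.6 and 42.0 CPM, than in each control culture, at 41.4, 40.2, 29.7 and 39.6 CPM. Groups that did not overlap with higher m.11,944 60% values made up 1.27% of genes. The log2 fold change of 0.33 (SE 0.13, 95% interval 0.03 to 0.63) did not pass (adjusted p = 1, and 0.104 with the replicate block). *Loxl3* was at 33.2, 29.7, 36.7 and 39.4 CPM in control cultures and 37.5, 38.7, 51.0 and 40.3 CPM in m.11,944 60% cultures. Its groups overlapped, and the log2 fold change of 0.29 (SE 0.14, 95% interval −0.03 to 0.62) did not pass (adjusted p = 1, and 0.113 with the block).

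**Figure D2:**
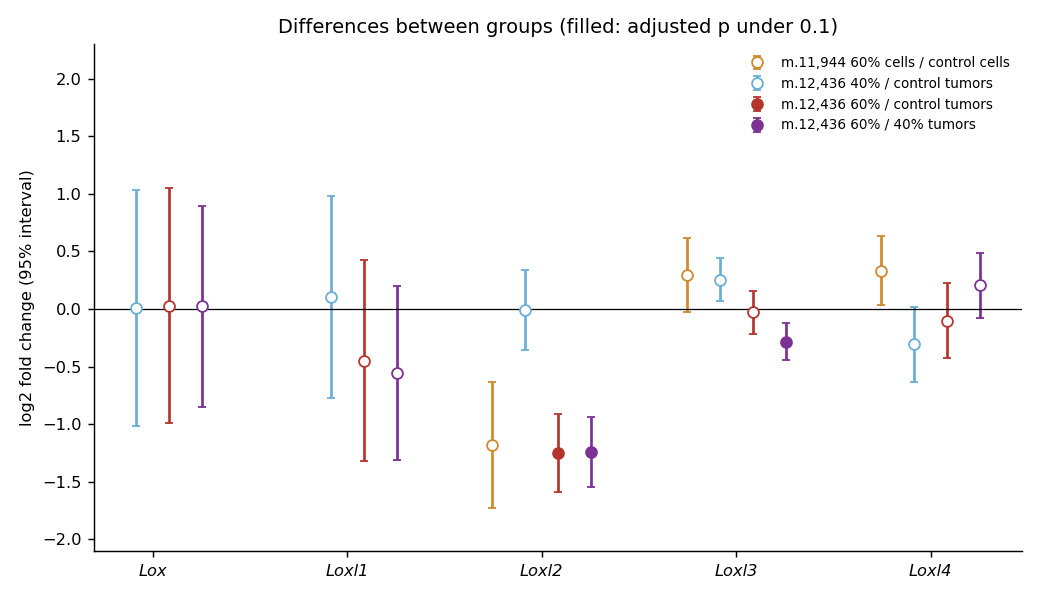
Log2 fold change of each lysyl oxidase gene (vertical axis) with its 95% interval in 4 comparisons; filled points have an adjusted p under 0.1 by edgeR's test without a block. *Loxl2* lies at −1.25 and −1.24 in m.12,436 60% tumors and at −1.18 in m.11,944 60% cells, while its value in m.12,436 40% tumors is −0.01.

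Per kilobase of exon, the make-up of the family differed between cells and tumors. In control cells, *Loxl3* and *Loxl4* made up 47.7% ± 5.13 and 40.5% ± 5.43 (SD, n = 4) of the family's CPM per kb and *Loxl2* made up 11.5% ± 2.62. In m.11,944 60% cells the share of *Loxl2* was 4.51% ± 0.537 (SD, n = 4). In control tumors *Loxl2* held 25.0% ± 0.897 (SD, n = 4), second to *Loxl3* with 40.2% ± 6.65. Its share was 23.3% ± 3.22 in m.12,436 40% and 13.4% ± 2.53 in m.12,436 60% tumors (SD, n = 7 each). The order by level in control tumors was *Loxl3* (18.3 CPM per kb), *Loxl2* (11.7), *Loxl1* (7.17), *Loxl4* (4.83) and *Lox* (4.54), of which the last 3 overlapped between tumors. In m.12,436 60% tumors *Loxl3* was at 17.97 CPM per kb and the other 4 members lay between 4.51 and 5.28, closer together than their spread between tumors. The family summed to 46.6 ± 7.95 CPM per kb (SD, n = 4) in control tumors. In m.12,436 40% and 60% tumors it summed to 49.6 ± 4.85 and 37.4 ± 7.39 (SD, n = 7 each). The ranges were 39.6 to 58.0 in control, 44.2 to 57.4 in m.12,436 40% and 25.1 to 43.8 in m.12,436 60% tumors. Control tumors overlapped both other groups, while every m.12,436 60% tumor was below every m.12,436 40% tumor. The sum includes *Loxl2*, by which the family was chosen. In control and m.11,944 60% cells it was 15.6 ± 1.64 and 17.6 ± 1.54 CPM per kb (SD, n = 4 each).

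**Figure D3:**
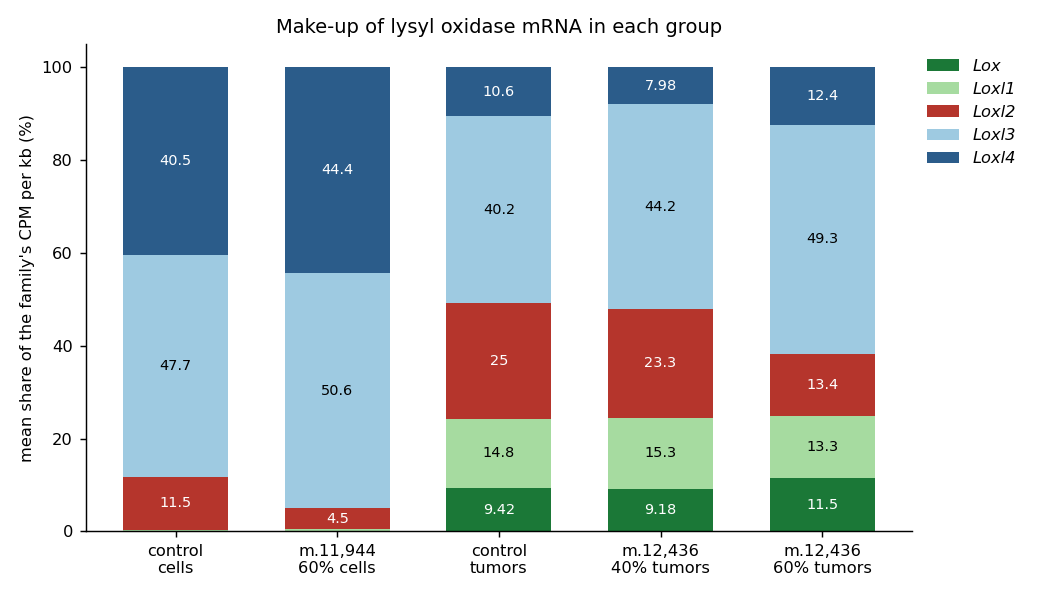
Mean share (%, vertical axis) of each member in the family's summed CPM per kb, by group. *Loxl2* takes 25.0% in control tumors, 23.3% in m.12,436 40% tumors and 13.4% in m.12,436 60% tumors, and *Lox* and *Loxl1* are too small to be seen in cells.

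Genes that act with lysyl oxidases were compared as lists, chosen with earlier results of these data known. Over all lists, 3 of 89 tested genes passed in m.12,436 60% against control tumors, beside 2.31% of all genes, and 22 had an unadjusted p under 0.05, beside 16.3% of all genes. In m.12,436 40% against control tumors 0 of 89 passed by edgeR's test, beside 0% of all genes (4 at an unadjusted p under 0.05, beside 5.09%, and 0 by limma-voom or DESeq2 in any list). Between m.12,436 60% and 40% tumors 4 of 89 passed, beside 1.81% of all genes, and 16 had an unadjusted p under 0.05, beside 14.1%. Counts at an unadjusted p for single lists against control tumors are to be read against the 16.3%. Of the 9 fibrillar collagens, the main substrates, 0 passed in m.12,436 60% against control tumors by edgeR's test or limma-voom, 1 had an unadjusted p under 0.05 and 1 passed by DESeq2. Their median log2 fold change in m.12,436 60% against control tumors was −0.11, and that of all genes was −0.0025. *Col3a1* was at 0.25 (adjusted p = 0.375) and *Col2a1*, a cartilage collagen of low level here, at −2.31 (SE 0.73, adjusted p = 0.136). Of the 3 basement membrane collagens tested, 0 passed by edgeR, limma-voom or DESeq2 (2 at an unadjusted p under 0.05, median −0.22), with *Col4a1* at −0.32 (adjusted p = 0.302) and *Col4a6* at 1.30 (adjusted p = 0.224). Of 17 elastic fibre genes, 0 passed by edgeR or limma-voom (4 at an unadjusted p under 0.05, and 3 by DESeq2, median 0.0067). Among them, the microfibril genes *Ltbp2* and *Fbn1* were at 0.61 (adjusted p = 0.134) and 0.55 (adjusted p = 0.188).

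Among 9 tested genes for the processing and matrix scaffold of lysyl oxidases, 2 passed as lower in m.12,436 60% than in control tumors. *Pcolce*, an enhancer of procollagen cleavage, fell from 369 ± 18.8 to 299 ± 14.8 CPM (SD, n = 4 and 7), a change of −0.31 on the log2 scale (SE 0.07, adjusted p = 0.0356). Its relative *Pcolce2* fell from 20.1 ± 5.58 to 9.50 ± 2.32 CPM, with a log2 fold change of −1.08 (SE 0.27, adjusted p = 0.0614). The list's median was 0.07. Against m.12,436 40% tumors, *Pcolce2* was at −0.73 (adjusted p = 0.159) and *Pcolce* at −0.10 (adjusted p = 0.46).

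Of 7 tested genes of copper supply, *Steap2*, a metalloreductase, was lower in m.12,436 60% than in m.12,436 40% tumors (−0.41, SE 0.10, adjusted p = 0.0742), and *Atp7a*, the pump that loads copper onto secreted enzymes, was at 0.36 against control tumors (adjusted p = 0.129). Of the 11 collagen hydroxylases and chaperones, 0 passed against control tumors by edgeR, limma-voom or DESeq2, and 0 had an unadjusted p under 0.05 (median −0.01), with *Plod2*, a lysyl hydroxylase, at 0.22 (adjusted p = 0.446) and *Serpinh1*, a collagen chaperone, at −0.14 (adjusted p = 0.477). Of the 4 tested genes for other cross-linking enzymes, 0 passed there by these tools (2 at an unadjusted p under 0.05), with *Pxdn*, which cross-links collagen IV, at 0.20 (adjusted p = 0.217) and *Tgm2*, a transglutaminase, at 0.35 (adjusted p = 0.254).

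Regulators of the family in other settings were also listed. Of 11 genes of the TGF-β pathway, *Skil*, a repressor that the pathway induces, was higher in m.12,436 60% tumors by 0.48 against control tumors (SE 0.09, adjusted p = 0.0176) and by 0.32 against m.12,436 40% tumors (adjusted p = 0.0674). The ligand gene *Tgfb1* rose only in the second comparison (0.22, adjusted p = 0.0841), with 0.15 (adjusted p = 0.286) in the first, and the difference between these was not tested. *Tgfbi*, a matrix protein gene of the pathway, was at 0.30 (adjusted p = 0.154) against control tumors. Of 14 hypoxia targets, 0 passed in m.12,436 60% against control tumors by edgeR or limma-voom (1 at an unadjusted p under 0.05, and 1 by DESeq2, median 0.02), with *Pfkfb4*, a glycolytic regulator, at 0.34 (adjusted p = 0.135) and *Ankrd37* at 0.30 (adjusted p = 0.706). Of 6 Snail and partner transcription factors, *Snai2* was lower in m.12,436 60% than in m.12,436 40% tumors (−0.30, SE 0.08, adjusted p = 0.0892), and *Twist1* was at −0.17 (adjusted p = 0.21) against control tumors. In m.11,944 60% against control cells, 0 of 76 tested genes of these lists passed by edgeR's test without a block (5 at an unadjusted p under 0.05, beside 4.11% of all genes, and 0 by limma-voom or DESeq2), and 12 passed with the replicate block, beside 7.11% of all genes. Among these, named after their values were seen, were *Col3a1* (0.48, adjusted p = 0.079) and the TGF-β pathway genes *Smad7* (−0.58, adjusted p = 0.0458) and *Skil* (−0.42, adjusted p = 0.05), while *Skil* was higher in m.12,436 60% tumors.

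Markers of cell types were set beside the fall of *Loxl2*. Of the 7 pigment cell markers, 2 were tested. *Pmel*, a melanosome protein gene, was lower in m.12,436 60% than in control tumors (−2.21, SE 0.51, adjusted p = 0.0456 by edgeR, and not past the threshold by limma-voom) and *Mitf*, a melanocyte transcription factor gene, was at 0.23 (adjusted p = 0.436). Control tumors 1 to 4 had 0.551, 1.38, 8.19 and 0.661 CPM of *Pmel*, against 0.467 to 0.734 CPM in m.12,436 60% and 0.271 to 0.504 CPM in m.12,436 40% tumors. *Dct*, a pigment enzyme gene, had 1, 102, 798 and 0 counts in control tumors 1 to 4 and 0 counts in the 14 tumors with m.12,436. Control tumor 3, which stood out by both, also had the highest *Lox*, *Loxl1* and *Loxl2* of the control tumors, and without it *Loxl2* was at −1.09 (adjusted p = 0.00718) in m.12,436 60% tumors. The part of the pigment cell RNA in the level of *Loxl2* was not tested. The 10 fibroblast markers summed to 10280 to 11760 CPM in control, 7833 to 12530 CPM in m.12,436 40% and 11440 to 14160 CPM in m.12,436 60% tumors, and 0 passed against control tumors by edgeR, limma-voom or DESeq2, with 0 at an unadjusted p under 0.05. *Col3a1* was the largest part of these sums, with means of 7084, 7319 and 8418 CPM in the same order. Cultured control cells also expressed it, at a mean of 1479 CPM. Single markers went different ways, with means in the same order of 27.5, 23.6 and 15.1 CPM for *Fap* and 342, 372 and 543 CPM for *Lum*. The sums therefore do not measure fibroblast content. The 8 endothelial markers summed to 325 to 407, 280 to 423 and 269 to 372 CPM in the same order, the 7 tested of 8 smooth muscle and pericyte markers had a median log2 fold change of −0.07, and neither list had a member past the threshold by edgeR (0 and 1 at an unadjusted p under 0.05). The 5 leukocyte markers summed to 425 to 636 CPM in control, 452 to 606 CPM in m.12,436 40% and 590 to 943 CPM in m.12,436 60% tumors. Their median log2 fold change was 0.61 against control tumors, where *Itgb2*, an integrin gene of leukocytes, passed (0.61, adjusted p = 0.0726) and all 5 had an unadjusted p under 0.05, beside 16.3% of all genes. The 8 T and NK cell markers had a median of 0.75, with 0 past the threshold by edgeR and 0 at an unadjusted p under 0.05. The part of leukocyte RNA in the lower level of *Loxl2* was not tested. The 8 macrophage markers summed to 1162 to 1437, 1144 to 1447 and 987 to 1757 CPM in the 3 groups, with 0 past the threshold against control tumors by edgeR or limma-voom (3 at an unadjusted p under 0.05, and 1 by DESeq2).

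Within groups, some members went with the mean level of host cell markers from tumor to tumor. The log2 CPM of each member, less its group's mean, was correlated over the 18 tumors with the mean log2 CPM of 8 marker lists, 40 pairs in all. After adjustment over these, 5 pairs had an adjusted p under 0.1 for Pearson's r by a two-sided permutation test within groups. With macrophage markers, *Lox* gave r = 0.78 (permutation p = 0.00267, adjusted 0.0393) and Spearman's rho = 0.631 (p = 0.0181, adjusted 0.145). *Loxl1* gave r = 0.78 (permutation p = 0.00103, adjusted 0.0393) and rho = 0.69 (p = 0.00478, adjusted 0.0956), and *Loxl2* gave r = 0.642 (permutation p = 0.00515, adjusted 0.0515) and rho = 0.55 (p = 0.0256, adjusted 0.167). Without the 2 tumors farthest from the median of the markers, r was 0.623, 0.653 and 0.618 for these members. Within the 7 m.12,436 60% tumors r was 0.869, 0.872 and 0.785, and within the 7 m.12,436 40% tumors it was 0.453, 0.356 and 0.508. The markers differed among themselves. For *Loxl2*, 3 of the 8 had r above 0.5, *Mrc1* (0.875), *Cd68* (0.717) and *Adgre1* (0.617), while *Csf1r*, *Fcgr1* and the complement genes *C1qa*, *C1qb* and *C1qc* lay between 0.131 and 0.316. For *Lox* and *Loxl1* 5 of the 8 had r above 0.5, with medians of 0.544 and 0.583.

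The other pairs past the threshold were with neutrophil markers, r = 0.616 for *Lox* (permutation p = 0.00295, adjusted 0.0393, rho = 0.688 with p = 0.00052, adjusted 0.0208) and r = 0.569 for *Loxl1* (permutation p = 0.0119, adjusted 0.0952, rho = 0.587 with p = 0.01, adjusted 0.133). Without the farthest 2 tumors these were 0.725 and 0.687. For *Lox* and *Loxl1*, r with these markers was 0.771 and 0.712 within the 7 m.12,436 60% tumors. Within the 7 m.12,436 40% tumors it was 0.529 and 0.347. *Loxl3* and *Loxl4* had no pair past the threshold. With fibroblast markers, r was 0.126 for *Lox*, 0.142 for *Loxl1* and −0.044 for *Loxl2* (permutation adjusted p of 0.675, 0.675 and 0.888). These means join fibroblast markers that went in opposite directions. The collagen I genes gave r = 0.866 (*Col1a1*) and 0.922 (*Col1a2*) with *Lox*, 0.845 and 0.898 with *Loxl1*, and 0.738 and 0.708 with *Loxl2*. In contrast, *Dcn*, *Col3a1* and *Fap* gave −0.547, −0.584 and −0.577 with *Lox*, and −0.526, −0.582 and −0.53 with *Loxl2*. With the mean of the 8 macrophage markers as a covariate, chosen after seeing the data, the log2 fold change of *Loxl2* in m.12,436 60% tumors was −1.30 against both control (adjusted p = 0.000148) and m.12,436 40% tumors (adjusted p = 2.59e-05). That mean stands for all 8 markers, most of which went little with *Loxl2*, so this fit cannot measure what macrophage RNA adds. The part of macrophage RNA in the level of *Loxl2* was not tested.

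**Figure D4:**
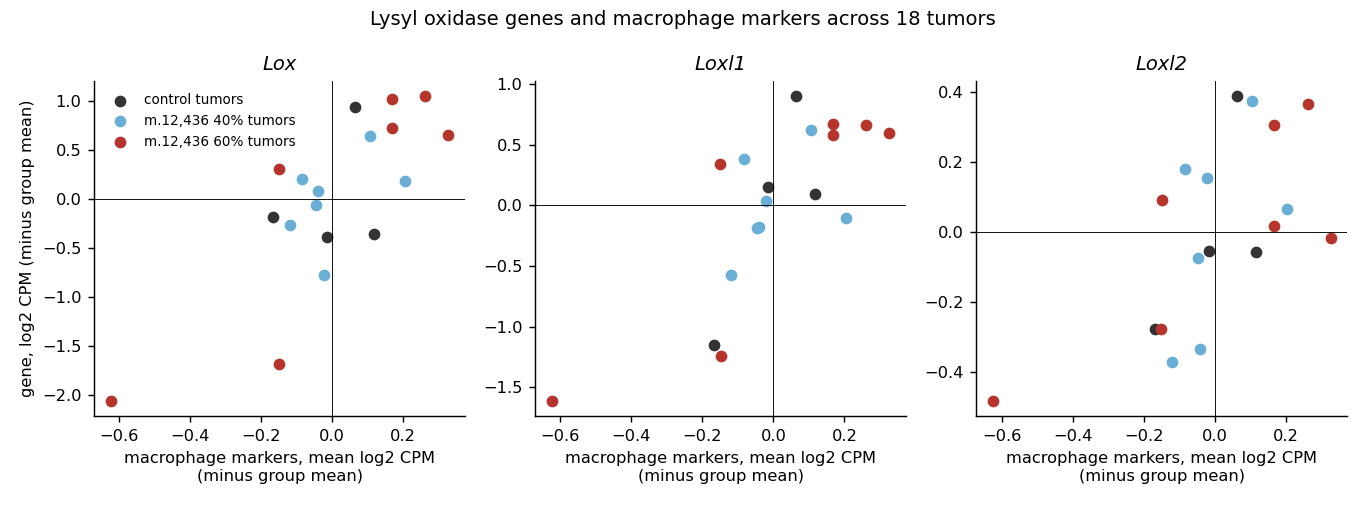
Log2 CPM of *Lox*, *Loxl1* and *Loxl2* less the group's mean (vertical axes) against the mean log2 CPM of 8 macrophage markers less the group's mean (horizontal axes), 1 point per tumor and 18 tumors. Pearson's r is 0.78, 0.78 and 0.642, and 1 m.12,436 60% tumor lies low on both axes of each plot.

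*Lox* and *Loxl1* went together across tumors, with r = 0.867 between their group-centred levels, and *Loxl1* and *Loxl2* gave 0.679, while *Loxl3* and *Loxl4* gave 0.019. These values and the following ones describe 18 tumors, which share library scaling. Among 12203 genes with a mean log2 CPM of at least 1, those most like *Lox* were *Mfap5* (r = 0.935), *Col1a2* (0.922), one of the 10 fibroblast markers, and *Cthrc1* (0.916), all genes of the extracellular matrix. For *Loxl1* they were *Rtn4rl2* (0.94), *Fbln2* (0.932) and *Plpp3* (0.931). For *Loxl2* they were *Fbxo5* (0.879), *Mrc1* (0.875), a mannose receptor of macrophages and one of the 8 markers above, and *Ica1* (0.874). For *Loxl3* they were *Sytl2* (0.9), *Cep85* (0.817) and *Gch1* (0.77), and for *Loxl4* *Capn2* (0.84), *Afap1l2* (0.837) and *Bend6* (0.836). *Mrc1* itself was at −0.79 (adjusted p = 0.299) in m.12,436 60% against control tumors.

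The genes around the members were compared next. Within 1 Mb of the 5 members, 2 of 120 tested genes, 1.67%, passed in m.12,436 60% against control tumors, beside 2.31% of all genes. One was *Stc1*, which codes for the secreted hormone stanniocalcin and lies 567 kb before the start of *Loxl2*. It was at 231, 154, 144 and 138 CPM in control tumors 1 to 4 and between 19.3 and 51.1 CPM with a median of 27.8 in m.12,436 60% tumors. Its log2 fold change was −2.48 (SE 0.39, adjusted p = 0.00702) against control and −1.60 (SE 0.35, adjusted p = 0.047) against m.12,436 40% tumors, where the groups overlapped (22.6 to 173 CPM). In the cells it had 58, 50, 15 and 71 counts in control cultures and 1, 0, 1 and 6 in m.11,944 60% cultures, and did not pass (adjusted p = 0.242), but did with the replicate block (−4.60, SE 0.44, adjusted p = 0.0015). The other 28 tested genes within 1 Mb of *Loxl2* did not pass in either comparison, and the median of all 29 was −0.06 against control tumors. The other gene was *Prdm6*, 934 kb from *Lox*, at −0.64 (SE 0.11, adjusted p = 0.00839).

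**Figure D5:**
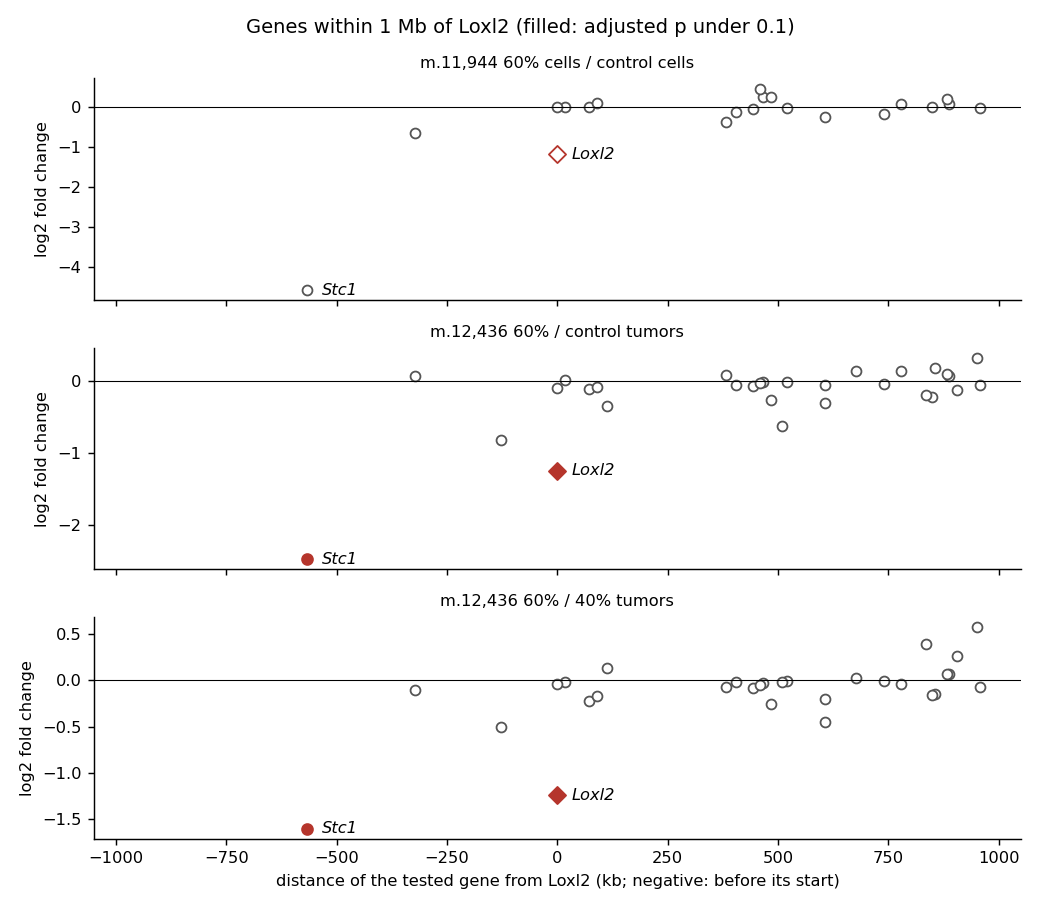
Log2 fold change (vertical axes) of the genes tested within 1 Mb of *Loxl2* against their distance from it in kb (horizontal axis), in m.11,944 60% cells and in m.12,436 60% tumors against both other tumor groups; filled points have an adjusted p under 0.1. *Stc1*, 567 kb away, lies at −2.48 and −1.60 in the tumors, and the other neighbours of *Loxl2* are not past the threshold.

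Some members overlap genes on the other strand, and whether reads were counted by strand is not given in the sources used here. *Loxl2* shares 943 bp with *R3hcc1*, which did not pass (−0.10 in m.12,436 60% against control tumors, adjusted p = 0.787). *Loxl3* shares 1947 bp with *Htra2*, a mitochondrial protease gene (−0.06, adjusted p = 0.683), and *Loxl4* 78 bp with *R3hcc1l* (−0.03, adjusted p = 0.86).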

How the data were processed

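RNA was extracted and sequenced from cell pellets and tumor fragments by a company, per the labels. The authors used STAR for alignment to GRCm39 and featureCounts for counting reads on genes, and the deposited counts are raw. Of 47 columns, 26 were matched to samples by their names and 21 were not used. Control tumors have numbers of a form found in their labels alone. The m.12,436 tumors are named by high and low, which the study's source data use for 60% and 40%. The m.11,944 60% cells are named by a number that heads the proteomics column of this line in the same source data. The control cells were told from the control tumors by where their numbering stops. These matches other than the control tumors are inferred, and not stated in the labels. The labels do not say whether cultures were independent, and the study gives biological replicates as its general rule. If they were technical, p-values among them measure only the spread between these samples.

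Counts were fitted over all genes with edgeR 4.0.16 in R 4.3.3 (filterByExpr, TMM, robust quasi-likelihood test), separately for 8 cultures, 18 tumors, and control tumors with control cells. Tests were two-sided, with Benjamini-Hochberg adjustment and a threshold of 0.1, as in the study. Intervals of differences are 95%. Gene positions and exon lengths came from GENCODE vM39. Correlations used log2 CPM with a prior count of 2 and 100000 draws.

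Members and lists were chosen with earlier results of these data known. All 5 members are named, with the 2 smallest p in m.12,436 60% against control tumors and every gene past the threshold in each pathway list, and the 3 genes most like each member. For cell type markers, only those that a statement needs are named.

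Same-numbered cultures paired by the data: their deviations from group means correlated at 0.717 to 0.832, against a mean of −0.264 for different numbers. The pairing comes from the replicate numbers in the labels. In tumors the mean was −0.164 to −0.003, and numbers pair nothing.

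Alternatives were limma-voom (limma 3.58.1), DESeq2 1.42.0, its size factors, other filters, a threshold of 0.05, only the groups compared, the replicate block, and each sample left out. Of 200 genes that were given a log2 change of 1 in simulated counts, edgeR found 46.5% in cells (12727 genes), 83.5% in m.12,436 60% against control tumors (15586 genes) and 84% against m.12,436 40% tumors (15234 genes). Of the calls of edgeR, 5.1%, 9.24% and 10.6% were of genes that had not been changed, against 25.7%, 26.4% and 24.8% of the calls of DESeq2, whose counts are to be read with this in view.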

Additional observations from a re-analysis of the deposited data

Results flagged for a closer look

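Of 23 combinations of a lysyl oxidase gene and a group with at least 10 counts in a library, 4 had a library farther from the others than Dixon's 95% critical value allows, where chance gives about 1 in 20 groups. *Lox* was highest in control tumor 3, at 39.7 CPM, with 15.7 to 18.1 CPM in the other 3 control tumors. *Loxl2* was highest in control culture 4, at 15.2 CPM, with 7.65 to 8.85 CPM in the other 3, and without it the log2 fold change of m.11,944 60% against control cells was −0.90. *Loxl4* was lowest in control culture 3, at 29.7 CPM, with 39.6 to 41.4 CPM in the others. *Loxl4* was also lowest in m.11,944 60% culture 4, at 42.0 CPM, with 47.9 to 48.6 CPM in the others.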

How the results depend on the processing

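The fall of *Loxl2* in m.12,436 60% tumors kept its direction and passed in all 21 alternatives against control tumors (log2 fold changes −1.33 to −1.09) and all 23 against m.12,436 40% tumors (−1.31 to −1.17). Leaving out 1 library gave 0 members past the threshold in the cells each time, 1 in m.12,436 60% against control tumors, 0 in m.12,436 40% against control tumors, 1 to 2 in m.12,436 60% against m.12,436 40% tumors, and 4 to 5 in control tumors against control cells. In cells, 1 member passed with DESeq2, which also called 9 genes in simulated cells without any change, and 1 with the replicate block (*Loxl2* both times), against 0 otherwise. Between m.12,436 60% and 40% tumors, 1 member passed in place of 2 at an adjusted p under 0.05, with limma-voom, with only the groups compared and with the replicate block. Between control tumors and control cells, 2 passed with at least 10 counts in every sample, a filter that removes *Lox* and *Loxl1*. Without control tumors, 2 of 40 correlations passed in place of 5, over fewer tumors. *Lox* and *Loxl1* with macrophage markers still passed (permutation adjusted p = 0.0736 for each). *Loxl2* with macrophage markers did not (r = 0.659, permutation adjusted p = 0.12). Nor did *Lox* and *Loxl1* with neutrophil markers (r = 0.594 and 0.519, permutation adjusted p of 0.12 and 0.234).

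Log2 fold changes that changed sign were all of members that did not pass. *Lox* in m.12,436 60% against control tumors was −0.24 with limma-voom and −0.37 with the macrophage covariate, and −0.12 to 0.48 without 1 tumor. Against m.12,436 40% tumors it was −0.29, −0.39 and −0.21 with limma-voom, the covariate and the block, and −0.13 to 0.20 without 1 tumor. In m.12,436 40% against control tumors, *Lox* was −0.0054 with the block, −0.029 with the same tumors unblocked, and −0.13 to 0.46 without 1 tumor. There *Loxl1* was −0.14 to 0.48 and *Loxl2* −0.085 to 0.15 without 1 tumor. In m.12,436 60% against control tumors, *Loxl1* was 0.052 and *Loxl3* 0.035 with the block, *Loxl3* 0.037 with the same tumors unblocked, and −0.052 to 0.0096 without 1 tumor. The causes were not tested. The covariate and the unblocked fit of shared numbers were chosen after seeing the data, and the block changed the calls of *Loxl2* in cells, of *Loxl3* between m.12,436 60% and 40% tumors and of *Loxl4* in control tumors against control cells (adjusted p = 0.108), and of no other member.

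Counts of 0 to 13 per culture limit *Lox* and *Loxl1* in cells, and a spread of 4.16 to 36.6 CPM between m.12,436 60% tumors limits *Lox* there. Tumor fragments mix cell types, and other groups of the series were not analysed here.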
